A study of Mus musculus with 4 samples.

Results

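The genes described here code for enzymes and regulators of cholesterol and fatty acid synthesis. The 30 members are a list of gene symbols, drawn up with earlier results of these data known. All 30 matched a row of the deposited table by Ensembl identifier without version, out of 19840 genes in that table, and all 30 are among the 14070 genes that carry an adjusted p. They fall into 16 sterol enzymes, 10 fatty acid enzymes and 4 regulators. RNA came from naive mouse embryonic stem cells grown in 2i/LIF, that is with kinase inhibitors and leukaemia inhibitory factor. The cells carried a lentivirus with a control hairpin (shCtrl, 2 libraries) or one that targets Lncenc1, a long noncoding RNA (shLincenc1, 2 libraries), and all were selected with puromycin for 2 days. The growth protocol names the lines E14TG2a and R1, and 2 hairpins per target were designed. The labels give neither the line nor the hairpin of a library, and nothing says that libraries of a group are separate cultures, so p-values may measure technical spread alone.

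The deposited table compares the groups once and does not name its numerator. Lncenc1 had 6400 and 7250 normalized reads in the numerator libraries, here H1 and H2 of the Lncenc1-high group, and 2126 and 2121 in L1 and L2 of the Lncenc1-low group. A normalized read count is a read count divided by the size factor of its library. If the hairpin lowered its target, L1 and L2 are the shLincenc1 libraries. Read counts per library were worked back from the deposited means and sum to 26133014 reads in H1 and to between 10475350 and 11051743 in each of the others. All 9 naive stem cell markers were measured, Pou5f1 at 10215 to 12443 normalized reads in every library. Their summed level was 79835 to 83831 in the Lncenc1-high and 67079 to 70237 in the Lncenc1-low libraries. Of 8 fibroblast markers 5 had a row, with a summed level of 137 to 161 normalized reads in the Lncenc1-high and 222 to 375 in the Lncenc1-low libraries. Most of that sum is Fbn1, at 110 to 140 and 174 to 324, while Col1a1, Col1a2, Col3a1 and Thy1 lay at 0 to 40.7. The 6 primitive endoderm markers summed to 102 to 123 and 173 to 184 normalized reads in the same order. Of 4 hepatocyte markers Apob alone had a row, at 19.0 and 5.02 normalized reads in H1 and H2 and 75.2 and 35.8 in L1 and L2. These groups did not overlap, and Apob did not pass (adjusted p = 0.288 in the authors' deposited table). The part of these marker levels in the results below was not tested.

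Cholesterol is built from acetyl-CoA through mevalonate, isoprenoid diphosphates, squalene and lanosterol. Fatty acids are built from the same acetyl-CoA through malonyl-CoA to palmitate, which elongases lengthen and desaturases make unsaturated. Transcription of both branches is driven by sterol regulatory element-binding proteins. These are held in the endoplasmic reticulum by Insig proteins when sterols are plentiful, and are carried by Scap to the Golgi for activation when sterols are scarce. Srebf2 is known mainly for sterol genes and Srebf1 mainly for fatty acid genes. On promoters these factors act together with NF-Y, which binds the CCAAT box, and with Sp1, which binds GC-rich boxes.

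Promoters were matched by symbol in the RefSeq table of build GRCm38.p6 for 23 of the 30 members (13 sterol enzymes, 3 regulators and 7 fatty acid enzymes). The authors used mm9, so these sequences were looked up by name and no coordinate was carried over. A promoter here is 300 bases, from 250 before to 50 after the start, and each motif was searched on both strands. The 6 windows below hold the 150 bases before the start, read 5′ to 3′ on the gene's strand. They are shown because among members with 1 promoter in the table these 4 sterol enzymes had the highest ratio of L2 to L1, and these 2 fatty acid enzymes the lowest, as described further on. Capitals mark the CCAAT box (CCAAT, or ATTGG on the other strand) and, in Hmgcs1, also the sterol regulatory element TCACNCCAC. The windows lie at chr13:119690201-119690350 (plus strand) for Hmgcs1, chr5:4104698-4104847 (minus) for Cyp51, chr10:76531455-76531604 (plus) for Lss, chr5:114444119-114444268 (plus) for Mvk, chr9:77917215-77917364 (plus) for Elovl5 and chr19:10101504-10101653 (minus) for Fads2.
Hmgcs1: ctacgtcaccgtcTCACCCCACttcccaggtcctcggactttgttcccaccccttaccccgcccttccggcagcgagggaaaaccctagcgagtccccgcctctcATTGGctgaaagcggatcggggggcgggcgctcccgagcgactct
Cyp51: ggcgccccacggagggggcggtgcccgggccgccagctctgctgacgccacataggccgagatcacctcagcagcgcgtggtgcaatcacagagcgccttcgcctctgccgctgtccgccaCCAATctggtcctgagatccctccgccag
Lss: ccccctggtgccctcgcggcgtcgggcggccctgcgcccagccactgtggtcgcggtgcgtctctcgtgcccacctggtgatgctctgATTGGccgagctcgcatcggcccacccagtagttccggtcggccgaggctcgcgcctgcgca
Mvk: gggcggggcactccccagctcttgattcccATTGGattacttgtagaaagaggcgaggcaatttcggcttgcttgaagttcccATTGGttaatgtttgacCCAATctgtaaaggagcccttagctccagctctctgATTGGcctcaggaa
Elovl5: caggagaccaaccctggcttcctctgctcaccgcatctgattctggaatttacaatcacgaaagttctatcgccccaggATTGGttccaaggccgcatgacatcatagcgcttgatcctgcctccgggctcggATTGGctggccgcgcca
Fads2: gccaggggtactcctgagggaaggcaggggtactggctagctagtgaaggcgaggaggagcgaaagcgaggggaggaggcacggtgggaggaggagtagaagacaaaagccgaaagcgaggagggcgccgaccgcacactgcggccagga

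The CCAAT box was found in 12 of the 13 sterol enzymes with a promoter, all but Acat2, and in 3 of 3 regulators. A gene counts once if any of its promoters holds the motif. The box was found in 4 of 7 fatty acid enzymes, namely Acly, Elovl1, Elovl5 and Fasn. For comparison, 43.5% of the 10641 tested genes with a promoter held it, and 37.4% of all 32851 promoters did. Among the printed windows Mvk holds 4 boxes, Elovl5 holds 2 and Fads2 holds 0. The sterol regulatory element in the spelling TCACNCCAC was found in Hmgcs1 alone, against 1.45% of tested genes and 1.24% of all promoters. The GC box GGGCGG was found in 12 of 13 sterol enzymes and 3 of 7 fatty acid enzymes, against 68.2% of tested genes and 35.7% of all promoters. The E-box CACGTG was found in 3 of 13 sterol enzymes (Dhcr7, Hsd17b7 and Sc5d) and in 1 of 7 fatty acid enzymes (Elovl5), against 11.8% of tested genes and 7.15% of all promoters. In Fasn 2 of the CCAAT matches, on opposite strands, overlap each other. A match is a string of letters and not a measured binding site.

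Both pathways were transcribed in all 4 libraries. Levels between genes are given as mean normalized reads per kilobase of exon, over all libraries. The highest was Scd2, a stearoyl-CoA desaturase, at 2887, followed by Acly, which makes cytosolic acetyl-CoA from citrate, at 2000 and by Insig1 at 1438. Scd1, the second desaturase of that kind, had 902 reads per kilobase, Hmgcs1, the cytosolic synthase of 3-hydroxy-3-methylglutaryl-CoA, 852 and Fasn, the fatty acid synthase, 846. Among sterol enzymes the next were Acat2 at 809, Fdft1 at 684 and Cyp51 at 683, and their order is within the spread of the libraries. Scd2 and Acly lay above every other member in each library on the per-kilobase scale. The lowest levels were those of Hsd17b7 at 63.3 and Fdps, which makes farnesyl diphosphate, at 31.8 reads per kilobase.

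**Figure D1:**
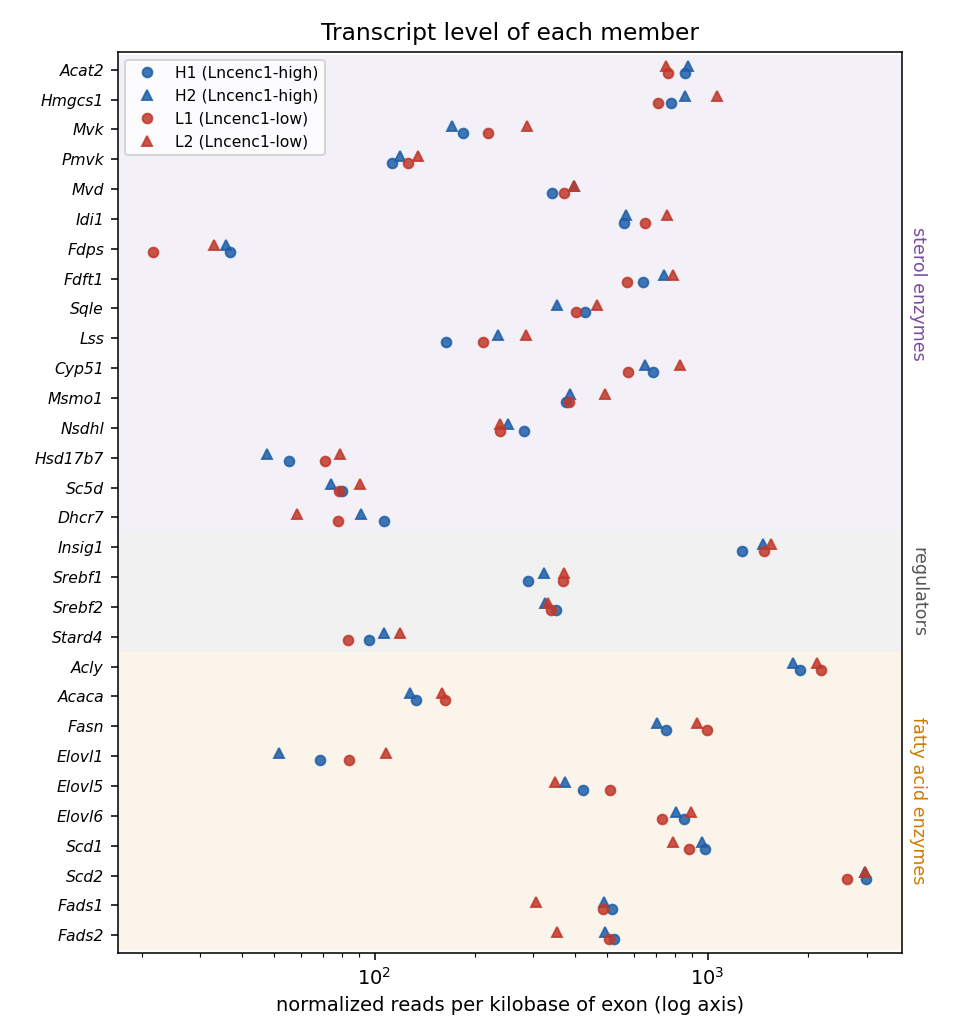
Normalized reads per kilobase of exon (log axis) for each member, with circles and triangles for the libraries H1 and H2 (blue) and L1 and L2 (red). Scd2 has the highest mean (2887) and Fdps the lowest (31.8), and the 4 libraries of a gene lie close together compared with the range over genes.

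The level of Fdps is uncertain. Its coding transcript matches 4 processed pseudogenes at 96.1 to 98.9% identity over 605 to 1066 bases, and the gene model Gm43738 shares 1124 bases of its exons on the same strand. Reads that fit several places can be dropped or split, and the settings for this are not stated in the sources. The same holds for Acat2, whose copy Acat3 is 97.7% identical over 1477 bases and had 83.8 to 113 normalized reads, and which also aligns with Tcp1 over 445 bases at 98.7% identity. It holds for Acaca, with the pseudogene Gm5182 at 99.2% identity over 6118 bases, for Idi1 (Gm13502, Gm35570 and Gm48574), Fdft1 (Gm6781) and Elovl6 (Gm11295), and for Scd2 and Scd1, which match each other over 623 bases at 95.5% identity. Fdft1 shares 774 bases of exon with Ctsb on the opposite strand and Hmgcs1 shares 557 with Gm48342. Shorter opposite-strand overlaps are those of Lss with 4930483K19Rik (381 bases), Idi1 with Gm48574 (323) and Cyp51 with Akap9 (166). The shortest are those of Srebf1 with Rai1 (109 bases), Elovl1 with Cdc20 (53) and Elovl6 with Gm35986 (34). Those reads are told apart only if the counting used the strand.

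None of the 30 members passed the test between the groups. By DESeq2, as the authors' deposited table gives it, no member (0 of 30) had an adjusted p under 0.05, where 1.53% of all tested genes did (215 of 14070, with 0.505% called higher in the Lncenc1-high group), and limma voom on the recovered counts also called 0, where it called 0.057% of all genes (8 of 14042). At an unadjusted p under 0.05 were 2 members in the authors' deposited table, Fasn and Mvk, against 8.82% of all tested genes, and voom put 4 there, Mvk, Hsd17b7, Dhcr7 and Fasn, against 10.2% of all genes by voom. The lowest adjusted p in the authors' deposited table was 0.41, that of Fasn. Over the members the fold changes, Lncenc1-high over Lncenc1-low on the log2 scale, ran from -0.67 (Elovl1) to 0.54 (Dhcr7) in the authors' deposited table, with 12 above and 18 below 0 and a median of -0.11. The median over all tested genes was -0.01. The libraries of the groups did not overlap for 16 members, 6 of them higher in the Lncenc1-high and 10 in the Lncenc1-low group. Of all tested genes 41.3% did not overlap, 20.6% with the Lncenc1-high and 20.7% with the Lncenc1-low group higher.

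For most members the intervals were narrower than 2-fold. Taken as the fold change in the authors' deposited table plus or minus 1.96 standard errors, the 95% interval stayed within 2-fold in either direction for 25 of 30 members, and for 53.9% of all tested genes. For Mvk, Fdps, Hsd17b7, Dhcr7 and Elovl1 it reached past 2-fold on 1 side. Standard errors of the members were 0.17 to 0.42 in the authors' deposited table, with a median of 0.22. The median was 0.32 for all tested genes, which include genes of lower means than any member. It was 0.25 for tested genes with a mean of at least the lowest member mean. Like the p-values, these errors and intervals may measure technical spread alone.

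**Figure D2:**
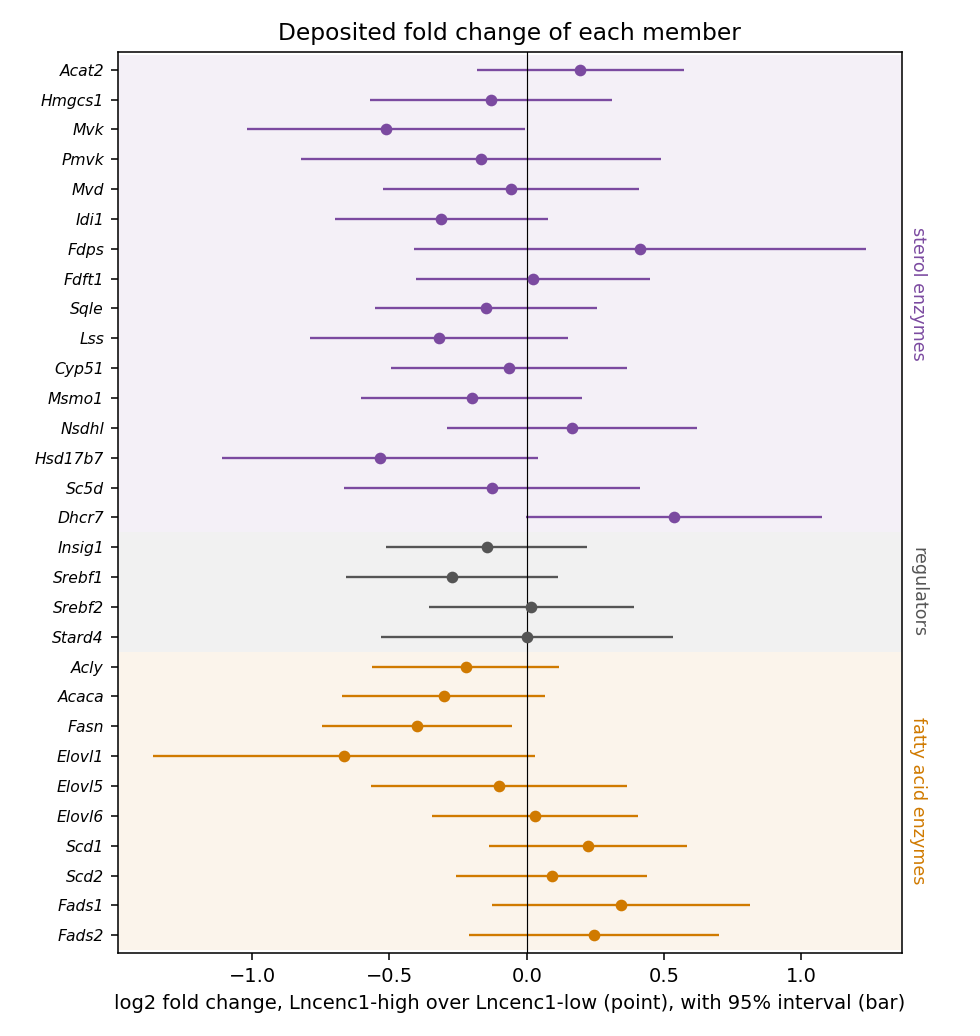
Log2 fold change of each member in the authors' deposited table (points, Lncenc1-high over Lncenc1-low) with the 95% interval (bars, 1.96 standard errors), coloured by branch. The values run from -0.67 for Elovl1 to 0.54 for Dhcr7, and 28 of the 30 bars cross 0.

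The sterol branch begins with the mevalonate pathway. Acat2, the thiolase that joins acetyl-CoA units, had 2181 and 2217 normalized reads in H1 and H2 and 1938 and 1901 in L1 and L2. Hmgcs1 had 3561 and 3918 in H1 and H2, 3269 in L1 and 4913 in L2. The Acat2 groups did not overlap and differed 1.15-fold, whereas for Hmgcs1 the lowest and the highest library both belonged to the Lncenc1-low group. Mvk, mevalonate kinase, had 492 (H1) and 455 (H2) normalized reads, and 587 (L1) and 766 (L2) in the other group. This was 1.43-fold more in the Lncenc1-low group without overlap. The authors' deposited table lists Mvk with a log2 fold change of -0.51 ± 0.26 (SE) with an adjusted p of 0.557. Pmvk, the next kinase, had 194 to 205 normalized reads in the Lncenc1-high and 216 to 231 in the Lncenc1-low libraries. Mvd, the decarboxylase, overlapped between the groups at 634 to 739 normalized reads. Idi1, the isomerase of isopentenyl diphosphate, had 1963 and 1998 in H1 and H2 and 2270 and 2644 in L1 and L2, with no overlap. The authors' deposited table gives Idi1 -0.31 ± 0.20 (SE) on the log2 scale, which did not pass (adjusted p = 0.757).

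From farnesyl diphosphate to lanosterol, differences within a group were as large as those between groups. Squalene synthase, coded by Fdft1, had 2708 and 3126 normalized reads in H1 and H2 and 2415 and 3323 in L1 and L2. Sqle, the squalene epoxidase, had 2381, 1962, 2237 and 2580.5 in H1, H2, L1 and L2. For both genes the groups overlap. Lss, lanosterol synthase, had 1762 and 2539 in H1 and H2 and 2285 and 3076 in L1 and L2. Fdps had 155 (H1) and 151 (H2) normalized reads, and 91.2 (L1) and 138 (L2), from 74 to 302 reads per library, with the uncertainty given above. The 4 genes of this stretch had log2 fold changes of -0.32 (Lss) to 0.41 (Fdps) in the authors' deposited table, with adjusted p of at least 0.854.

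The enzymes from lanosterol to cholesterol included the largest differences of the sterol branch in both directions. Dhcr7, the reductase of the last step, had 620 and 531 normalized reads in H1 and H2 and 454 and 341 in L1 and L2. Hsd17b7, a sterol ketoreductase, had 283 and 243 in H1 and H2 and 364 and 402 in L1 and L2. Neither pair of groups overlapped, with Dhcr7 1.45-fold higher in the Lncenc1-high and Hsd17b7 1.45-fold higher in the Lncenc1-low group. Listed in the authors' deposited table are log2 fold changes of 0.54 ± 0.27 (SE) for Dhcr7 (adjusted p = 0.57) and -0.53 ± 0.29 (SE) for Hsd17b7 (adjusted p = 0.647). Cyp51, the lanosterol demethylase, had 3033 and 2863 normalized reads in H1 and H2, 2539 in L1 and 3633 in L2. Msmo1, the methylsterol monooxygenase, had 2310 and 2372 in H1 and H2, 2352 in L1 and 3029 in L2. In both genes L2 alone stood above the other libraries. Nsdhl, which acts with Msmo1 in removing methyl groups, had 720 to 801 normalized reads in the Lncenc1-high and 679 to 680 in the Lncenc1-low libraries, and Sc5d, a sterol desaturase, overlapped at 361 to 439.

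The regulators differed little. Srebf2 had 2524 and 2340 normalized reads in H1 and H2 and 2430 and 2378 in L1 and L2. In the authors' deposited table it stood at 0.02 ± 0.19 (SE) on the log2 scale. Its 95% interval was -0.36 to 0.39, or up to 1.31-fold. This interval may cover technical spread alone, so a larger difference between separate cultures is not excluded. Srebf1 had 1625 and 1817 in H1 and H2 and 2073 and 2081 in L1 and L2, without overlap. In the authors' deposited table Srebf1 stood at -0.27 ± 0.20 (SE) on the log2 scale (adjusted p = 0.836). Insig1, itself a known target of the factors it retains, had 3925 and 4521 normalized reads in H1 and H2 and 4563 and 4778 in L1 and L2. The Insig1 groups were separated by a gap far smaller than the one between H1 and H2. Stard4, a carrier of sterol between membranes, had 538, 597, 466 and 667 in H1, H2, L1 and L2, and L1 and L2 bracketed both libraries of the other group.

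In the fatty acid branch the 3 genes that lead from citrate to palmitate had the same direction. Acly had 9967 and 9524 normalized reads in H1 and H2 and 11516 and 11227 in L1 and L2. Acaca, the carboxylase that makes malonyl-CoA, had 2277 and 2180 in H1 and H2 and 2775 and 2720 in L1 and L2. Fasn had 8223 and 7735 in H1 and H2 and 10890 and 10176 in L1 and L2. Both Lncenc1-low libraries lay above both Lncenc1-high libraries for each of the 3, by 1.17-fold for Acly, 1.23-fold for Acaca and 1.32-fold for Fasn. On the log2 scale the authors' deposited table lists -0.22 ± 0.17 (SE), -0.30 ± 0.19 (SE) and -0.40 ± 0.18 (SE) in that order, with adjusted p of 0.876, 0.749 and 0.41. None passed the test, and 20.7% of all tested genes were likewise separated with the Lncenc1-low group higher.

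The 3 elongases did not share a direction. Elovl1, which extends very long saturated and monounsaturated chains, had 187 and 141 normalized reads in H1 and H2 and 228 and 294 in L1 and L2. That is 1.59-fold more in L1 and L2, from 112 to 364 reads per library. The authors' deposited table lists Elovl1 at -0.67 ± 0.35 (SE) with an adjusted p of 0.613. Elovl5, which extends polyunsaturated chains, had 1489 and 1316 in H1 and H2, 1789 in L1 and 1223 in L2. Elovl6, which extends palmitate to stearate, had 5466 and 5175 in H1 and H2, 4693 in L1 and 5728 in L2. For Elovl5 and Elovl6 the highest and the lowest library were both of the Lncenc1-low group, with L1 on top for Elovl5 and L2 on top for Elovl6.

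All 4 desaturases had positive fold changes in the authors' deposited table, from 0.09 for Scd2 to 0.34 for Fads1, and none passed (adjusted p of at least 0.814). Scd1 had 4792 and 4709 normalized reads in H1 and H2 and 4298 and 3842 in L1 and L2, without overlap. Scd2 had 16311 and 16233 in H1 and H2, 14315 in L1 and 16249 in L2, so L1 alone was lower. Fads1 and Fads2 code for the desaturases of polyunsaturated fatty acids. Fads1 had 2478 and 2352 in H1 and H2, 2334 in L1 and 1472 in L2, and Fads2 had 1729, 1617, 1664 and 1160.5 in the same order. Their fold changes rest on L2, since without that library a negative binomial refit gave log2 fold changes of 0.05 for Fads1 and 0.01 for Fads2, and without L1 0.71 and 0.53.

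Set side by side, the branches had similar differences between the groups. The median log2 fold change in the authors' deposited table was -0.13 over the 16 sterol enzymes, 5 above and 11 below 0, and -0.04 over the 10 fatty acid enzymes, 5 above and 5 below. The difference of these medians, -0.09, was smaller than the spread between libraries of a group (SD 0.19), and the means of the branches were -0.08 each. Its sign changed with single libraries, from -0.18 without L1 to 0.009 without H1 and 0.11 without L2. Within the fatty acid branch the medians by step were -0.30 from acetyl-CoA to palmitate, -0.10 for elongation and 0.23 for desaturation in the authors' deposited table. No member of these groups passed the test, so the order of the medians is a description.

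**Figure D3:**
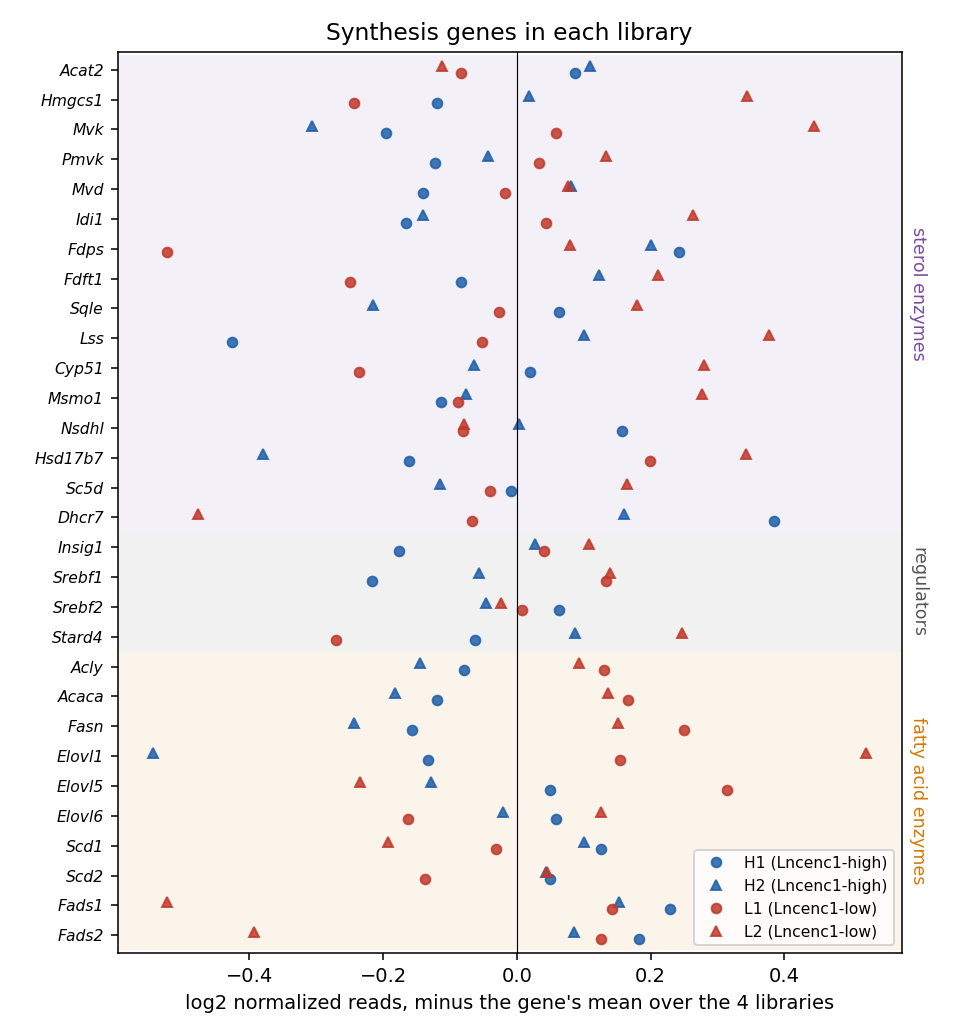
Normalized reads of each member in each library as log2 difference from the gene's own mean over the 4 libraries, with blue for H1 and H2 and red for L1 and L2. L2 (red triangles) is the highest library for Hmgcs1, Cyp51 and Msmo1 and the lowest for Fads1, Fads2 and Dhcr7, while Acly, Acaca and Fasn have both red symbols to the right of both blue ones.

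The branches differed more between the libraries of the Lncenc1-low group. Of the 16 sterol enzymes 14 had more normalized reads in L2 than in L1, all but Acat2 and Dhcr7, as did 50.4% of all tested genes. The median log2 ratio of L2 to L1 was 0.21 for sterol enzymes, -0.07 for fatty acid enzymes and 0.00 for all tested genes. Fdps was 1.52-fold, Cyp51 1.43-fold, Fdft1 1.38-fold and Lss 1.35-fold higher in L2, and in all 7 sterol enzymes were at least 1.25-fold higher there, against 27.2% of all tested genes. Of the fatty acid enzymes 3 were higher in L2 and 7 in L1, 3 of them by at least 1.25-fold against 25.7% of all tested genes, with Fads1 at 0.631, Elovl5 at 0.684 and Fads2 at 0.698 times the level in L1. In the Lncenc1-high group the sterol enzymes were split 8 to 8 between H1 and H2. All 10 fatty acid enzymes were lower in H2 than in H1 there, with a median log2 ratio of -0.08. Of all tested genes 49.7% were higher in H2 than in H1, and the middle 50% of their log2 ratios ran from -0.21 to 0.20. These ratios compare single libraries and have no replicate, so they carry no test. Library totals here are sums over the genes with recovered counts. They leave out 23 genes that hold 13.7% of the summed mean normalized reads. With library totals in place of the authors' size factors every ratio of L2 to L1 is 0.07 higher on the log2 scale. The fatty acid median is then 0.01 and the count of fatty acid enzymes higher in L2 becomes 5, while all tested genes have a median of 0.08.

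**Figure D4:**
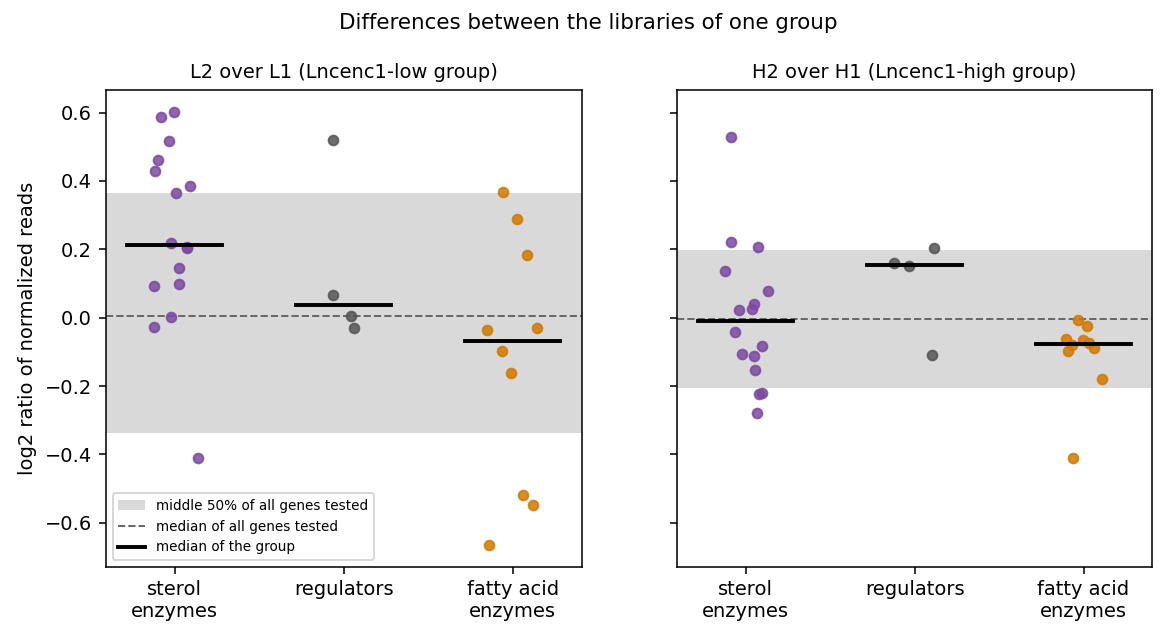
Log2 ratio of normalized reads between the libraries of a group, L2 over L1 on the left and H2 over H1 on the right, for each member by branch, with the median of the branch (black bar) and the median and middle 50% of all tested genes (dashed line and grey band). Sterol enzymes have a median of 0.21 for L2 over L1 and fatty acid enzymes one of -0.07, and on the right all 10 fatty acid enzymes lie below 0.

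Other genes of the pathways were read from lists that do not include the members. The lists were chosen with earlier results of these data known, so their counts of calls are no test of a list. Of all tested genes 1.53% passed and 8.82% had an unadjusted p under 0.05, by DESeq2 in the authors' deposited table. In lists this short a count of 0 is near those shares. Of 10 tested further genes of sterol synthesis none (0) passed, with 0 at an unadjusted p under 0.05. For 8 genes of the isoprenoid branch the counts were likewise 0 and 0. Among 11 genes that control the sterol factors 0 passed, and 1, Scap, had an unadjusted p under 0.05 in the authors' deposited table. Scap had 482 and 544 normalized reads in H1 and H2, 700 in L1 and 1298 in L2, and did not pass at -0.96 ± 0.30 (SE) with an adjusted p of 0.0656 in the authors' deposited table. L2 was nearly as far from L1 as the groups were from each other. Scap shares 985 bases of exon with 5830462I19Rik on the opposite strand.

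Genes of cholesterol uptake, transport and efflux held 1 call among 13 tested, higher in the Lncenc1-high group, where 0.505% of all tested genes were called in that direction. Npc2, which binds cholesterol in the lysosome and hands it on for export, had 8612 and 11438 normalized reads in H1 and H2 and 6475 and 5073 in L1 and L2. Its mean in H1 and H2 was 1.74-fold that in L1 and L2, at 0.80 ± 0.21 (SE) and an adjusted p of 0.0201 in the authors' deposited table. The Npc2 groups did not overlap, where 20.6% of all tested genes were separated with the Lncenc1-high group higher. Npc2 was not called by voom, which called 0.057% of all genes, at a log2 fold change of 0.78 (adjusted p = 0.259). In the refit the call was lost without H2, at 0.58 (adjusted p = 0.684), or without L2, at 0.63 (adjusted p = 0.585). Apoe, a lipoprotein component, and Vldlr, a lipoprotein receptor, had an unadjusted p under 0.05 and did not pass, at 0.52 ± 0.19 and 0.91 ± 0.46 (SE) in the authors' deposited table.

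Of 18 tested further genes of fatty acid synthesis and elongation 0 passed, where 1.53% of all tested genes did. At an unadjusted p under 0.05 the share of all tested genes was 8.82%. Acss2, which makes acetyl-CoA from acetate and so stands beside Acly, was the 1 gene at an unadjusted p under 0.05 in the authors' deposited table. It had 587 and 468 normalized reads in H1 and H2 and 368 and 269 in L1 and L2, and did not pass at 0.73 ± 0.29 (SE) with an adjusted p of 0.288 in the authors' deposited table. Acss2 was thus higher in the Lncenc1-high libraries, and Acly in the Lncenc1-low ones.

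Fatty acid activation and glycerolipid synthesis come after synthesis. Of 16 tested genes on the list of fatty acid activation and glycerolipid synthesis 3 passed, all higher in the Lncenc1-low group. Of all tested genes 1.02% were called in that direction. On the list 6 had an unadjusted p under 0.05 in the authors' deposited table, against 8.82% of all tested genes. The list also holds the binding protein Fabp5 and was chosen with earlier results of these data known. Its counts are therefore no test of the list. The median of the list in the authors' deposited table was -0.19. Lpin1, the phosphatidate phosphatase that makes diacylglycerol, had 361 and 460 normalized reads in H1 and H2 and 895 and 1353 in L1 and L2. Lpin1 was 2.74-fold higher in the Lncenc1-low group, at -1.46 ± 0.27 (SE) and an adjusted p of 4.66e-05 in the authors' deposited table. Fabp5, a fatty acid-binding protein, had 54.4 and 95.3 in H1 and H2 and 246 and 245 in L1 and L2, a 3.28-fold difference, at -1.74 ± 0.41 (SE) and an adjusted p of 0.00475 in the authors' deposited table. Acsl5, an acyl-CoA synthetase, had 197 and 253 in H1 and H2 and 468 and 462 in L1 and L2, 2.07-fold apart, at -1.05 ± 0.29 (SE) and an adjusted p of 0.0291 in the authors' deposited table. For all 3 genes the groups did not overlap, where 20.7% of all tested genes were separated with the Lncenc1-low group higher. The 3 genes are described because they passed in these same libraries, so the separation is no further support. L1 and L2 lay close together for Fabp5 and Acsl5.

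These 3 calls depend on the test and on single libraries. Voom called 0.057% of all genes (8 of 14042) and 0 of these 3. Its log2 fold changes were -1.48 for Lpin1 (adjusted p = 0.155), -1.91 for Fabp5 (adjusted p = 0.159) and -1.12 for Acsl5 (adjusted p = 0.177). These were about as large as those deposited. Over all genes, fits without 1 library also called fewer than the refit with all libraries, as given further on. In the refit Lpin1 was not called without L2, at -1.13 (adjusted p = 0.122). Fabp5 was not called without H1, at -1.37 (adjusted p = 0.381), or without L2, at -1.74 (adjusted p = 0.0889). Leaving out any 1 of the 4 libraries ended the call of Acsl5, at -1.24 to -0.88 (adjusted p of 0.0758 to 0.557). Fabp5 has the processed pseudogenes Gm14328 and Gm6166, which match 408 and 409 bases of it at 97.3 and 98.3% identity, and Acsl5 shares 404 bases of exon with Zdhhc6 on the opposite strand. Pcyt1a, Agpat2 and Dgat2 had an unadjusted p under 0.05 and did not pass, at -0.57 ± 0.23, -0.73 ± 0.34 and -1.66 ± 0.80 (SE) in the authors' deposited table. Among 16 tested genes of fatty acid oxidation 0 passed, against 1.53% of all tested genes. On that list 1 gene had an unadjusted p under 0.05, against 8.82% of all tested genes. That gene, Slc25a20, the carnitine carrier of mitochondria, had 2987 and 2174 normalized reads in H1 and H2 and 5123 and 3636 in L1 and L2, at -0.76 ± 0.23 (SE) and an adjusted p of 0.0654 in the authors' deposited table.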

How the data were processed

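Strand-specific libraries were made from total RNA depleted of ribosomal RNA, per the labels' protocols. For the authors' own processing, DESeq2 1.8.2, HTSeq, TopHat2 and build mm9 are listed, per the submitters' processing notes. The annotation release and the counting settings are not stated in the sources. Per the file headers, the authors deposited for each gene a mean normalized read count (a signal over all 4 libraries), a log2 fold change with its standard error, a Wald statistic (a score), a p-value and an adjusted p-value. These are the main results. The members and lists were chosen with earlier results of these data known.

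Each mean adds up whole counts of 4 libraries, weighted by a step per library. Steps were read from values that recur among low genes. Combinations that give the mean to 15 digits were listed, and the one that returned the deposited fold change within 0.00001, in a fit with a weak ridge penalty on the coefficients, was taken where the runner-up missed by 10 times as much or more, or a single one within 0.001. Where a library had under 1 expected read a single combination was taken without that check. Counts were obtained for 19817 of 19840 genes (99.9%). The other 23 have means of at least 33504, above the range searched, and hold 13.7% of the summed means. Size factors are 1.95 (H1), 0.797 (H2), 0.811 (L1) and 0.809 (L2). The method was tested on simulated data.

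Recovered counts were used for values per library, limma 3.58.1 voom and a Wald refit (negative binomial, with the dispersion implied by each standard error), with Benjamini-Hochberg adjustment over the genes fitted. Fits without 1 library keep the dispersions of all 4, so a library left alone in its group is taken to vary as the rest do. Lists are described by counts and medians. With 2 libraries a group a permutation of libraries cannot give a p under 0.333, so none was run. Symbols matched for 19707 genes, from GENCODE M21, which also gave exon lengths. Copies are blastn 2.17.0 matches of at least 95% identity over 300 bases. Named genes are all 30 members, Lncenc1, list genes with an unadjusted p under 0.05, and Scap and Acss2 whatever their p. Some list genes that this rule names are not reported here. Markers and the main genes sharing sequence with a named gene are named as well.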

Additional observations from a re-analysis of the deposited data

How the results depend on the processing

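The count of members called was 0 in the deposited table, with no filter on low means, by voom, with library totals and without each of the 4 libraries. The lowest adjusted p of a member over these alternatives was 0.295, that of Fads1 without L1. Over all tested genes 215 were called in the deposited table, 178 genes with no filter on low means and 8 by voom. The refit called 210 with all libraries, 225 with library totals, and with 1 library left out 49 (L2), 56 (H1), 80 (H2) and 197 (L1). Median log2 fold changes without 1 library ran from -0.12 (L2) to 0.026 (H2) for fatty acid enzymes, and the sterol minus fatty acid difference from -0.18 (L1) to 0.11 (L2). The cause was not tested. The sterol median stayed below 0 in every alternative, from -0.24 without L1 to -0.01 without L2, and moved by less than the spread between libraries. Means, voom and library totals moved no branch median beyond that spread, nor did counting regulators in their branches or leaving out Acly, although the fatty acid median without Acly was 0.03. Voom was added for the medians after the data were seen. With library totals 3 members near 0 changed sign, Fdft1, Srebf2 and Stard4. No paired analysis was possible because the recovered libraries carry no replicate number. Fdps, Elovl1 and Pmvk had 74 to 377 reads per library, and standard errors of 0.42, 0.35 and 0.33 in the authors' deposited table.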
